A study of Mus musculus with 6 samples.

Results

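The Cyp4a and Cyp4b1 genes encode cytochrome P450 enzymes that hydroxylate fatty acids at or near the last carbon of the chain, and 7 of them were examined in renal cortex: Cyp4a10, Cyp4a14, Cyp4a31, Cyp4a32, Cyp4a12a, Cyp4a12b and Cyp4b1. They were chosen by symbol, and all 7 were found among the 24346 genes of the deposited tables. RNA-seq had been made from 3 mice on the HF/HC/HS/BA diet with tofogliflozin and 3 mice on the HF/HC/HS/BA diet alone, all C57BL/6 and all for 8 weeks. Tofogliflozin inhibits SGLT2, the sodium-glucose transporter of the early proximal tubule, and the diet, high in fat and cholesterol with added bile salt, was given to both groups. No group on ordinary chow enters these comparisons. The labels give neither age nor sex of the animals. The deposited values are FPKM, fragments per kilobase of transcript scaled to the depth of the library, which allows levels to be compared between genes of different length.

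Hydroxylation of the terminal carbon, called omega-hydroxylation, is the entry to a side route of fatty acid breakdown in which alcohol and aldehyde dehydrogenases make a dicarboxylic acid that peroxisomes then shorten. Cyp4a10 and Cyp4a14 are classic targets of PPARα, the nuclear receptor that senses fatty acids, and are used as readouts of its activity in mouse liver and kidney. CYP4A enzymes also convert arachidonic acid to 20-HETE, an eicosanoid that acts on renal vessels and tubular salt transport; in the mouse kidney Cyp4a12a is the main enzyme of this reaction and is induced by androgen. CYP4B1 prefers shorter fatty acids and also activates some foreign compounds.

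All 7 genes lie in 1 cluster on chromosome 4 of mm10 (GENCODE M21 annotation), which spans 348.7 kb from the first member to the last. In order, Cyp4a12a occupies 115299046 to 115332815 on the plus strand and Cyp4a12b 115411624 to 115439034 on the plus strand. Cyp4a14 follows on the minus strand from 115486200 to 115496142. Cyp4a10 lies at 115518264 to 115533649, Cyp4a31 at 115563649 to 115579015 and Cyp4a32 at 115600969 to 115621602, all on the plus strand. Cyp4b1 ends the row on the minus strand from 115624725 to 115647723, only 3.1 kb beyond Cyp4a32. Each deposited value is for the whole gene and does not tell exons or transcripts apart.

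**Figure D1:**
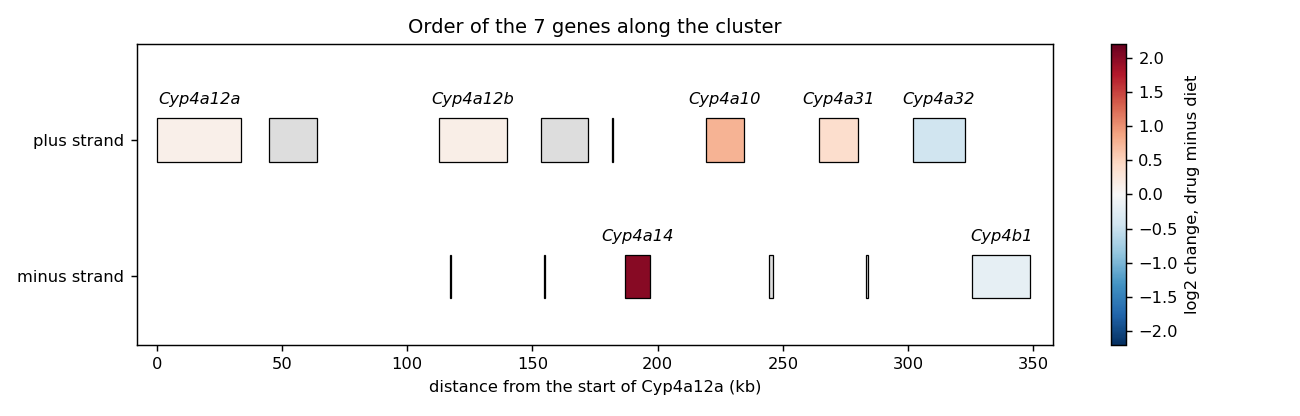
Positions of the 7 genes along the cluster, as distance in kb from the start of Cyp4a12a, with plus-strand genes above and minus-strand genes below. Colour gives the log2 change (tofogliflozin minus diet, of FPKM + 1), and grey boxes are other annotated genes and pseudogenes. Cyp4a14, the darkest box at 2.0, and Cyp4a10 at 0.77 are neighbours within the cluster. Cyp4a31 (0.38), Cyp4a32 (-0.44) and Cyp4b1 (-0.20) lie to their right, and Cyp4a12a (0.13) and Cyp4a12b (0.15) to their left.

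The members are close copies of one another, which bears on how far their reads can be told apart. The coding sequences of Cyp4a12a and Cyp4a12b were identical at 98.5% of aligned bases. Those of Cyp4a10 and Cyp4a32 were identical at 97.2%, of Cyp4a10 and Cyp4a31 at 96.6% and of Cyp4a31 and Cyp4a32 at 96.0%. Cyp4a14 stood apart from every other member, at 76.8% or less, and Cyp4b1 at 64.9% or less. Of all 100-base stretches of coding sequence, 41.3% of those of Cyp4a12a, 20.1% of those of Cyp4a32, 17.9% of those of Cyp4a10 and 13.9% of those of Cyp4a31 also occur in another member, against 0% for Cyp4a14 and Cyp4b1. The sources used here state neither the read length nor the handling of reads with several matches, so the values of Cyp4a10, Cyp4a31, Cyp4a32, Cyp4a12a and Cyp4a12b are uncertain in how reads were split between them, whereas no such stretch is shared by Cyp4a14 or Cyp4b1.

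The likeness can be seen around the codon of the cysteine that holds the haem iron in every P450. The 93 coding bases below (positions 1321 to 1413 of the Cyp4a10 coding sequence, read across an exon junction) carry that codon in capitals in the first line, and in the other lines capitals mark bases that differ from Cyp4a10. They are shown because this stretch is the same in Cyp4a10, Cyp4a31 and Cyp4a32 and differs in the others.
Cyp4a10: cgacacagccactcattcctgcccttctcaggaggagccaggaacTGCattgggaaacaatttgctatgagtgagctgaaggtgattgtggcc
Cyp4a31: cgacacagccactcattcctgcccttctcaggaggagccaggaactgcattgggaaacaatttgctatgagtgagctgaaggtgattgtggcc
Cyp4a14: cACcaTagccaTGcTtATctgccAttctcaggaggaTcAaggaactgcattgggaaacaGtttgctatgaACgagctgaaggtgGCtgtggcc
Cyp4a12a: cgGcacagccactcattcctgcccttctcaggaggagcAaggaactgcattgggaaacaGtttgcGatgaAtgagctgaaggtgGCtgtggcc
Cyp4b1: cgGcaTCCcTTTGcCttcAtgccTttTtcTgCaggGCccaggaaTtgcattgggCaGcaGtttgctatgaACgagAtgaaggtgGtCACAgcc
Cyp4a31 and Cyp4a32 had 0 differences from Cyp4a10 here, Cyp4a12a and Cyp4a12b 7 each, Cyp4a14 16 and Cyp4b1 28. The transcripts are not alike throughout. In the 90-base window where Cyp4a10 and Cyp4a31 differ most (coding bases 73 to 162, the plus strand of chr4:115518394-115518483 for Cyp4a10, chr4:115563789-115563878 for Cyp4a31 and chr4:115601047-115601136 for Cyp4a32 in mm10), Cyp4a31 had 7 differences and Cyp4a32 had 3, again in capitals.
Cyp4a10: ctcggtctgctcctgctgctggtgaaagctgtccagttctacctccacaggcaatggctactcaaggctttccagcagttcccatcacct
Cyp4a31: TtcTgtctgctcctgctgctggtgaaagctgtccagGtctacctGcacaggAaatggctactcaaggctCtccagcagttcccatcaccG
Cyp4a32: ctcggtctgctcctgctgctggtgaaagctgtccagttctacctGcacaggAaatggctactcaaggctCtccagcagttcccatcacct

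The files hold no counts. From the spacing of the lowest values the libraries held about 7800000 to 10000000 fragments, tofogliflozin replicate 1 being the deepest. Correlations of log2 values between libraries were 0.980 to 0.990 for every pair. Markers of the proximal tubule were abundant in every library, as the label of renal cortex requires, with Lrp2, the endocytic receptor megalin, at 170 to 218 FPKM with tofogliflozin and 191 to 228 FPKM on the diet alone. Cyp4a genes are also strong in liver, and 7 hepatocyte genes summed to 80.1 to 132 FPKM with tofogliflozin and 101 to 166 FPKM on the diet alone, most of it Ttr. Of the 4 that passed the filter on low values, Alb (6.72 to 8.42 FPKM with tofogliflozin and 3.37 to 4.33 FPKM on the diet alone; limma adjusted p = 0.0541) and Fga were apart and higher with tofogliflozin, while Ttr and Apoa2 overlapped. Serpina3k and Cyp2c29 did not exceed 0.0808 and 0.0737 FPKM in any library. The part of these genes in the levels of the members was not tested.

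On the diet alone the members ranked between 9 and 10536 among the 24346 genes of a library, and the top of their order was clear. Cyp4b1 was by far the highest, at 2023 ± 254 FPKM with tofogliflozin and 2352 ± 522 FPKM on the diet alone (mean ± SD, n = 3 each, here and below), and ranked between 9 and 22 among the 24346 genes of a library. Its share of a library's summed FPKM was 0.304% to 0.465%. By their means Cyp4a31 and Cyp4a10 came next, Cyp4a10 being the higher of the pair in 2 of 3 libraries with tofogliflozin and Cyp4a31 in 3 of 3 on the diet alone. In tofogliflozin replicate 2 and diet replicate 1, Cyp4a12a was above both. Cyp4a12a lay above Cyp4a14 in every diet library, but overlapped it with tofogliflozin. Cyp4a32 and Cyp4a12b were lowest, and these neighbours overlapped on the diet alone, while Cyp4a12b was above Cyp4a32 in each tofogliflozin library. The related genes Cyp4a29, Cyp4a30b and Cyp4x1 were listed at 0 in all 6 libraries.

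**Figure D2:**
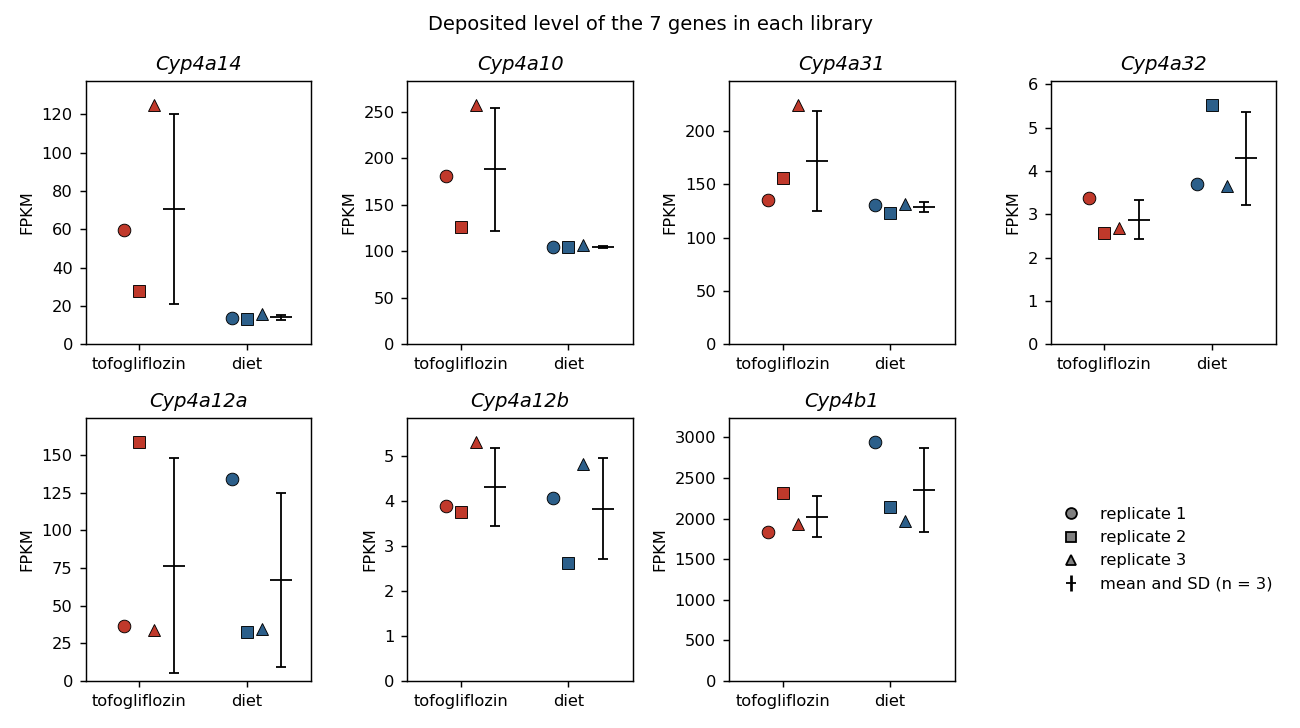
FPKM of each member in each library, with 1 panel per gene on its own axis from 0, tofogliflozin left of diet, symbols for the replicate number and bars for the mean and SD. The 3 diet libraries nearly coincide for Cyp4a14 (13.2 to 15.6 FPKM) and Cyp4a10 (104 to 106 FPKM), where the tofogliflozin libraries are spread above them, while Cyp4a12a has 1 high library in each group.

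The question put to the libraries was which of these hydroxylases differed between mice given tofogliflozin and mice on the diet alone, the title of the series naming PPARα. Cyp4a14, Cyp4a10 and Cyp4a31 were higher with tofogliflozin in every library, and Cyp4a32 was lower in every library. None of the 7 members passed the test over all genes (limma on log2(FPKM + 1), Benjamini-Hochberg adjusted p under 0.05), which 0.253% of the 12248 tested genes did (0.196% higher and 0.0572% lower with tofogliflozin). Before adjustment, p was under 0.05 for 3 members, against 13.1% of all tested genes. Of these 2 were higher, against 6.7% of all tested genes, and 1 was lower, against 6.39%. The groups did not overlap for 3 members that were higher and 1 that was lower, against 9.63% and 8.86% of all tested genes. The median log2 change of the 7 was 0.15, beside -0.000755 over all tested genes. With 3 libraries against 3 an exact permutation test cannot give a two-sided p below 0.1, so none was used for single members. In bulk tissue, fewer cells of a type and less RNA per cell cannot be told apart.

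Cyp4a14 showed the largest difference of the 7. This gene, whose product hydroxylates medium-chain fatty acids, was at 59.3, 27.9 and 124.8 FPKM with tofogliflozin and at 13.5, 13.2 and 15.6 FPKM on the diet alone. Every tofogliflozin library exceeded every diet library, and the tofogliflozin libraries differed from one another far more than the diet libraries did. The means were 70.7 ± 49.5 and 14.1 ± 1.31 FPKM, a ratio of 5.0, and the log2 change was 2.0 ± 0.44 (SE; 95% interval 0.99 to 3.01; limma adjusted p = 0.124). By rank among all genes of a library it stood at 1487, 3004 and 745 with tofogliflozin, against 5247, 5259 and 4739 on the diet alone. Without tofogliflozin replicate 2, the lowest of its group, the log2 change was 2.53 and Cyp4a14 passed (limma adjusted p = 0.0443). Without tofogliflozin replicate 3, the highest, it was 1.47 and did not pass (limma adjusted p = 0.218). Over all 16 other settings the adjusted p of Cyp4a14 ran from 0.0443 to 0.338.

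Cyp4a10, its neighbour in the cluster, followed the same order of libraries. Its product hydroxylates lauric and arachidonic acid. Levels were 181, 126 and 258 FPKM with tofogliflozin and 105, 104 and 106 FPKM on the diet alone. The diet libraries nearly coincided, and every tofogliflozin library lay above them. The log2 change was 0.77 ± 0.22 (SE; 95% interval 0.27 to 1.27; limma adjusted p = 0.203), a ratio of means of 1.79. It was 1.03 without tofogliflozin replicate 2 and 0.52 without tofogliflozin replicate 3.

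Cyp4a31 is less well characterised than Cyp4a10, of which it is a near copy. It was at 135, 156 and 224 FPKM with tofogliflozin and at 131, 123 and 132 FPKM on the diet alone. The groups were apart only by the small step between tofogliflozin replicate 1 and diet replicate 3. The log2 change was 0.38 ± 0.17 (SE; 95% interval -7.49e-05 to 0.77; limma adjusted p = 0.381), and it was 0.17 without tofogliflozin replicate 3.

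The balance between these 3 genes also differed between libraries. The ratio of Cyp4a14 to Cyp4a10 was 0.328, 0.221 and 0.485 with tofogliflozin and 0.129, 0.127 and 0.147 on the diet alone, so the groups were apart. Thus Cyp4a14 was higher relative to its neighbour too. Cyp4a14 shares no 50-base or 100-base coding stretch with another member. Its untranslated parts were not compared. Of the 50-base coding stretches of Cyp4a10, however, 40.5% are shared with another member, so a split of reads there would move this ratio. The ratio of Cyp4a31 to Cyp4a10 was 0.746, 1.24 and 0.871 with tofogliflozin and 1.24, 1.18 and 1.24 on the diet alone. Here the groups overlapped through tofogliflozin replicate 2, the library in which Cyp4a10 was closest to its level on the diet alone. The sum of Cyp4a10 and Cyp4a31, on which a split of reads between those 2 has little bearing, was 316, 282 and 482 FPKM with tofogliflozin and 236, 228 and 238 FPKM on the diet alone. Of the summed FPKM of the 6 Cyp4a genes, Cyp4a14 made up 14.2%, 5.87% and 19.2% with tofogliflozin and 3.45%, 4.7% and 5.28% on the diet alone. The differences between members were not tested.

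Cyp4a32, the member beside Cyp4b1, lay on the other side of 0 and at a far lower level. It was at 3.39, 2.57 and 2.67 FPKM with tofogliflozin and at 3.70, 5.53 and 3.65 FPKM on the diet alone. The groups were apart, but tofogliflozin replicate 1 and diet replicate 3 nearly touched and diet replicate 2 stood high. The log2 change was -0.44 ± 0.16 (SE; 95% interval -0.80 to -0.07; limma adjusted p = 0.290), and it was -0.28 without diet replicate 2. Such values rest on about 31 to 65.9 fragments a library, for which counting alone gives an error of 12.3% to 18%, and 46.7% of the 50-base coding stretches of Cyp4a32 are shared with Cyp4a10 or Cyp4a31.

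**Figure D3:**
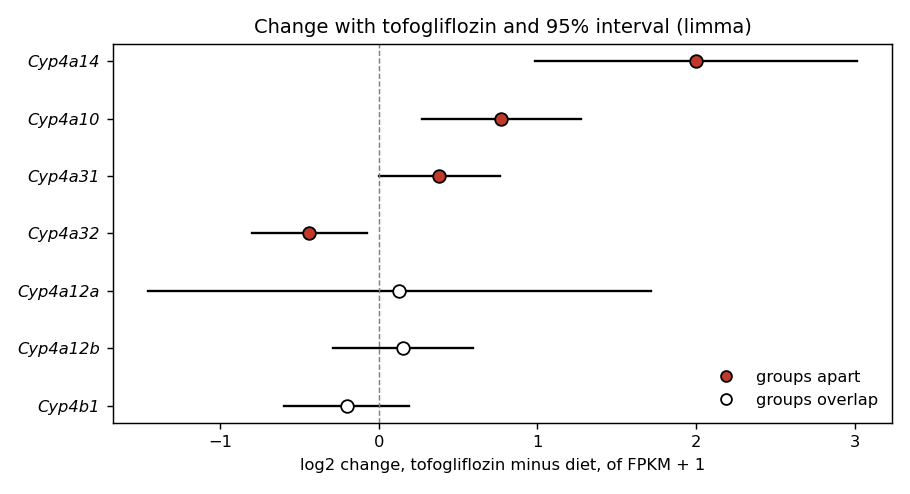
Log2 change of each member (tofogliflozin minus diet, of FPKM + 1) with its 95% interval from limma; filled points mark members whose groups did not overlap. The intervals of Cyp4a14 (0.99 to 3.01) and Cyp4a10 (0.27 to 1.27) lie above 0, that of Cyp4a32 lies below 0, and that of Cyp4a12a is the widest.

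Cyp4a12a, the 20-HETE-forming enzyme, did not separate by treatment. It was at 36.7, 158.9 and 33.9 FPKM with tofogliflozin and at 134, 32.7 and 34.3 FPKM on the diet alone. Tofogliflozin replicate 2 and diet replicate 1 were high, and the other 4 libraries lay within 32.7 to 36.7 FPKM. The log2 change was 0.13 ± 0.69 (SE; 95% interval -1.45 to 1.71; limma adjusted p = 0.955), an interval that leaves room for a large difference in either direction. Without tofogliflozin replicate 2 it was -0.58 and without diet replicate 1 it was 0.79, and it was also below 0 without diet replicate 2 or diet replicate 3.

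Cyp4a12b, its near-identical copy, did not share that pattern. It was at 3.88, 3.74 and 5.31 FPKM with tofogliflozin and at 4.06, 2.61 and 4.81 FPKM on the diet alone. Its groups overlapped, with a log2 change of 0.15 ± 0.19 (SE; limma adjusted p = 0.784) that was -0.042 without diet replicate 2. The ratio of Cyp4a12a to Cyp4a12b was 9.46, 42.5 and 6.39 with tofogliflozin and 33.0, 12.5 and 7.14 on the diet alone, so the high libraries of Cyp4a12a stood out in the ratio as well. The values of Cyp4a12b rest on about 48.7 to 112 fragments a library.

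Cyp4b1 was lower on average with tofogliflozin, within the spread of its libraries. It was at 1830, 2311 and 1927 FPKM with tofogliflozin and at 2947, 2139 and 1970 FPKM on the diet alone. Diet replicate 1 stood above the rest, and tofogliflozin replicate 2 was the highest of its group. The log2 change was -0.20 ± 0.17 (SE; 95% interval -0.59 to 0.19; limma adjusted p = 0.663), and it was -0.03 without diet replicate 1. Of 5 fat cell markers none passed the filter on low values and Lep was listed at 0 in every library; they summed to 0.401, 0.248 and 0.117 FPKM with tofogliflozin and to 6.46, 0.295 and 1.15 FPKM on the diet alone, so diet replicate 1 was the highest in these as well; their part in the result was not tested.

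Because Cyp4b1 outweighed the rest, the summed FPKM of all 7 members was 2537 ± 271 with tofogliflozin and 2675 ± 579 on the diet alone, and its groups overlapped. The sum of the 6 Cyp4a genes was 419, 475 and 649 FPKM with tofogliflozin and 391, 282 and 296 FPKM on the diet alone, so its groups were apart. Cyp4b1 made up 81.4%, 82.9% and 74.8% of the 7-gene sum with tofogliflozin and 88.3%, 88.4% and 86.9% on the diet alone.

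Across the libraries, other genes stood beside these. Among 12241 tested genes other than the members, those most like Cyp4a14 in log2(FPKM + 1) over the 6 libraries included Fdft1 (squalene synthase, Pearson r = 0.9953), Hacl1 (a peroxisomal lyase of alpha-oxidation, 0.992), Gpn3 (0.9915) and Elk3 (0.9913). Of these Hacl1 had the widest range, at 40.5, 31.3 and 55.7 FPKM with tofogliflozin and 21, 20.3 and 24.7 FPKM on the diet alone. Those most like Cyp4b1 included Cmtr1 (0.9938), Phyh (phytanoyl-CoA hydroxylase; 0.9931), Tbc1d22b (0.9877) and Rnh1 (0.9852). These are among the highest of 12241 values over only 6 libraries and are given as a description.

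Of 24 tested PPARα targets outside the family, 21 were above 0, against 49.7% of all tested genes, and their median log2 change was 0.18. This list, like the others here, was chosen with earlier results of these data known, so its counts are a description only. None passed over all genes (limma; 10 higher and 1 lower at an unadjusted p under 0.05), and 1 did without diet replicate 3. Acaa1b, a peroxisomal thiolase, was at 151, 176 and 198 FPKM with tofogliflozin and at 115, 102 and 109 FPKM on the diet alone (limma adjusted p = 0.0550). Angptl4, a secreted inhibitor of lipoprotein lipase, was at 72.7, 109 and 140 FPKM with tofogliflozin and at 47.1, 33.0 and 47.0 FPKM on the diet alone (limma adjusted p = 0.0730). Both were apart between groups and highest in tofogliflozin replicate 3, as were Cyp4a14, Cyp4a10 and Cyp4a31. Their lowest tofogliflozin library was replicate 1, as for Cyp4a31, and not replicate 2, as for Cyp4a14 and Cyp4a10. Tofogliflozin replicate 3 was the highest of its group for 20 of the 24 targets (83.3%), against 34% of all tested genes. Other lists varied widely, and several were short. The shares were 4 of 5 markers of the first proximal tubule segment and of the thick ascending limb (80% each). They were 3 of 4 markers of the distal convoluted tubule (75%) and 13 of 22 peroxisomal genes (59.1%). At the other end were 0 of 7 collecting duct, 0 of 8 endothelial and 0 of 7 macrophage markers, and 1 of 17 genes of electron supply and haem (5.88%). Without that library 9 targets were higher and 1 lower at an unadjusted p under 0.05, where 4.56% and 4.16% of all tested genes were, and the median of the targets was 0.10. Cd36, the fatty acid translocase, was lower, at 114 ± 17.6 FPKM with tofogliflozin and 170 ± 22.5 FPKM on the diet alone (limma adjusted p = 0.131).

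**Figure D4:**
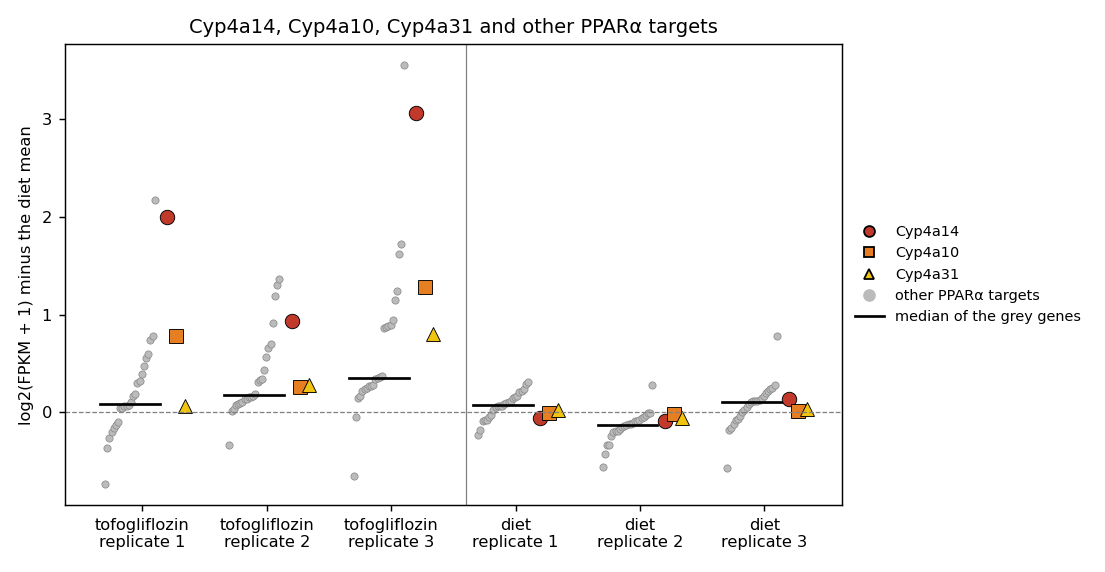
Log2(FPKM + 1) minus the mean of the 3 diet libraries in each of the 6 libraries, for Cyp4a14, Cyp4a10 and Cyp4a31 (coloured) and the 24 other tested PPARα targets (grey, ordered by value within a library, with their median as a bar). The grey genes and the 3 members are both highest in tofogliflozin replicate 3; Cyp4a14 is above most grey genes in all 3 tofogliflozin libraries, while Cyp4a31 in tofogliflozin replicate 1 lies just above its diet values.

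The receptors through which fatty acids act on Cyp4a genes were examined next. Ppara was at 36.3, 39.7 and 49.9 FPKM with tofogliflozin and at 33.9, 36.6 and 28.0 FPKM on the diet alone; the groups overlapped, and the log2 change was 0.34 ± 0.14 (SE; limma adjusted p = 0.339). Of 15 tested receptors and coregulators none passed (limma; 1 higher and 2 lower at an unadjusted p under 0.05). The 2 lower ones were Ppard, the widely expressed relative of Ppara, at 6.43 ± 0.634 FPKM with tofogliflozin and 9.07 ± 0.755 FPKM on the diet alone, and Ncoa3, a coactivator, at 12.7 ± 0.268 FPKM with tofogliflozin and 16.3 ± 1.42 FPKM on the diet alone.

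Genes that act before and after the hydroxylases were set beside them. P450 enzymes take electrons from the reductase Por, which was at 158 ± 15.8 FPKM with tofogliflozin and 167 ± 14.9 FPKM on the diet alone (limma adjusted p = 0.794). Of 17 genes of electron supply and haem none passed (limma; 1 higher and 2 lower at an unadjusted p under 0.05), with a median log2 change of -0.04. Hmox1, which degrades haem, was at 16.8 ± 2.62 FPKM with tofogliflozin and 26.1 ± 6.61 FPKM on the diet alone (limma adjusted p = 0.229). Of 11 tested alcohol and aldehyde dehydrogenases none passed (limma; 3 higher and 0 lower at an unadjusted p under 0.05), the smallest p being those of Aldh1a7 and Aldh1a1. Aldh3a2, the fatty aldehyde dehydrogenase that follows omega-hydroxylation, was at 84.7 ± 3.55 FPKM with tofogliflozin and 95.6 ± 12.4 FPKM on the diet alone. Of 22 tested genes of peroxisomal shortening none passed (limma; 6 higher and 3 lower at an unadjusted p under 0.05), with a median of 0.09. Acot3, a peroxisomal thioesterase, was at 15.2, 10.4 and 23.1 FPKM with tofogliflozin and at 4.61, 8.11 and 6.12 FPKM on the diet alone, with its tofogliflozin libraries in the order of Cyp4a14.

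Most further members of the CYP4 family were low in renal cortex. Of 15 further CYP4 entries in the files 5 passed the filter on low values, and none of these was called (limma; 0 at an unadjusted p under 0.05). Cyp4f13, the highest, was at 22.8 ± 1.3 FPKM with tofogliflozin and 23.0 ± 1.09 FPKM on the diet alone, a log2 change of -0.01 ± 0.08 (SE). Among 17 tested genes of arachidonic acid metabolism by other routes none passed (limma; 4 higher and 4 lower at an unadjusted p under 0.05), and 1 did without tofogliflozin replicate 2. Cyp2c44, an epoxygenase, was at 32.5, 20.0 and 32.2 FPKM with tofogliflozin and at 14.3, 17.5 and 14.9 FPKM on the diet alone (limma adjusted p = 0.130).

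Since Cyp4a12a is induced by androgen, 19 genes known to depend on androgen or sex in mouse kidney were set beside it, some of them higher in males and others, such as Prlr, higher in females. None passed, and 1 did when diet replicate 2 was left out (limma). At an unadjusted p under 0.05, 4 were higher, Prlr among them, against 6.7% of all tested genes. At the same threshold 7 were lower, Odc1 among them, against 6.39%. These counts pool genes higher in males with genes higher in females. Leaving out tofogliflozin replicate 3, 4 were lower at an unadjusted p under 0.05, where the share of all tested genes was 4.16%, against 6.39% with all libraries. Odc1, ornithine decarboxylase, was at 277, 498 and 260 FPKM with tofogliflozin and at 1079, 582 and 636 FPKM on the diet alone (limma adjusted p = 0.177). Kap, the androgen-regulated kidney protein, was at 62866 ± 6765 FPKM with tofogliflozin and 56723 ± 10033 FPKM on the diet alone (limma adjusted p = 0.827). As in Cyp4a12a and Cyp4b1, tofogliflozin replicate 2 and diet replicate 1 were the highest of their groups for 10 of the 19 genes (52.6%), against 15.1% of all tested genes. Lists not chosen for androgen had shares of this size too, with 6 of 11 alcohol and aldehyde dehydrogenases (54.5%) and 8 of 17 genes of electron supply and haem (47.1%). It also held for 5 of 7 markers of the last proximal tubule segment (71.4%), some of which are on both lists, and the summed level of these markers was 2594, 3027 and 2485 FPKM with tofogliflozin and 3398, 2821 and 3099.8 FPKM on the diet alone. These counts were made after the values were seen, and the part of these genes in the levels of Cyp4a12a and Cyp4b1 was not tested.

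**Figure D5:**
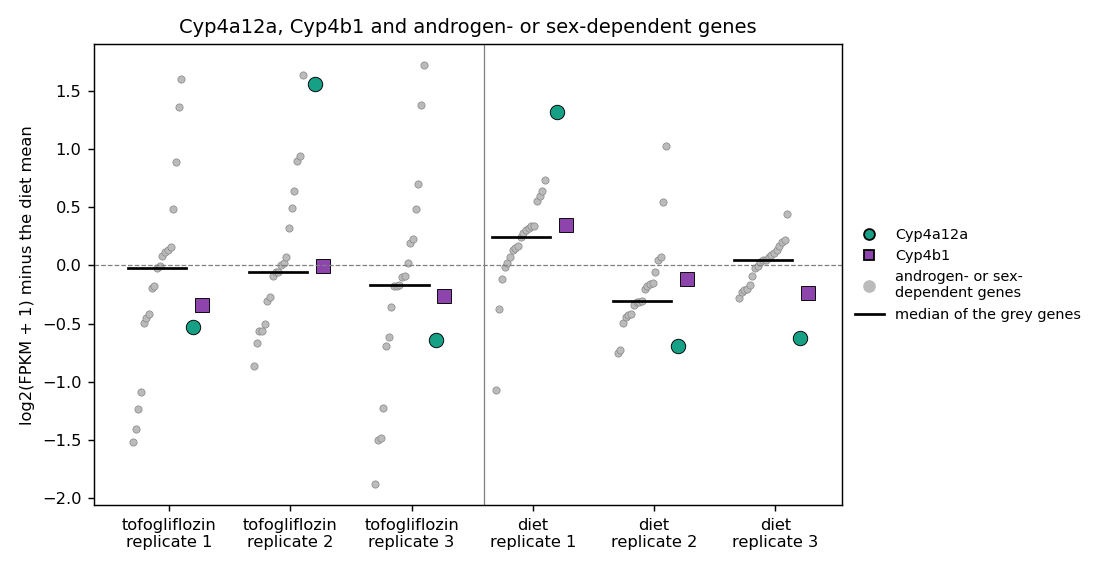
Log2(FPKM + 1) minus the mean of the 3 diet libraries in each library, for Cyp4a12a and Cyp4b1 (coloured) and 19 androgen- or sex-dependent genes (grey, ordered by value, with their median as a bar). The median pools genes higher in males with genes higher in females. Cyp4a12a stands high in tofogliflozin replicate 2 and diet replicate 1 and lies below 0 in the other 4 libraries, and Cyp4b1 is the highest of each group in the same libraries with a narrower range.

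Among markers of other cell types, summed levels overlapped between groups for endothelium (170 to 204 FPKM with tofogliflozin and 180 to 190 FPKM on the diet alone) and the first proximal tubule segment (622 to 749 FPKM with tofogliflozin and 615 to 714 FPKM on the diet alone). Those of macrophages overlapped as well (90.2 to 138 FPKM with tofogliflozin and 108 to 295 FPKM on the diet alone). However, 0 of 7 tested macrophage markers had a log2 change above 0, and their median was -0.45. None was called, and 2 were lower at an unadjusted p under 0.05 (limma), against 6.39% of all tested genes. With a library left out, from 1 (without tofogliflozin replicate 3) to 7 (without diet replicate 3) were lower. In those settings the shares of all tested genes were 4.16% and 6.66%. Summed levels were apart for the distal convoluted tubule (497 to 561 FPKM with tofogliflozin and 421 to 466 FPKM on the diet alone) and the collecting duct (276 to 331 FPKM with tofogliflozin and 204 to 246 FPKM on the diet alone). Their part in the values of Cyp4a14 and Cyp4a10 was not tested.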

How the data were processed

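Per the labels' protocols, total RNA of renal cortex was extracted with a column kit and made into strand-specific mRNA libraries. The authors deposited FPKM for 24346 genes, 1 table per library. Per the submitters' processing notes, reads on mm10 were handled with Cuffdiff 2.2.1, SAMtools 0.1.18, Bowtie2 2.2.8 and TopHat2 2.1.1, in roles not stated; nor do these notes name an annotation, the use of strand or a scaling between libraries. Upper quartiles of FPKM were 10.5 to 10.6.

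The 12248 genes that reached 1 FPKM in 3 or more libraries, all 7 members among them, were put on the log2(FPKM + 1) scale, which understates the change of low genes. The test was limma 3.58.1 under R 4.3.3 (mean-variance trend, two-sided, Benjamini-Hochberg over all tested genes, threshold 0.05). On data simulated for this comparison over 12248 genes, it called 61.2% of true log2 changes of 0.5, 95.5% of those of 1 and 98.5% of those of 2. The simulation changed 200 genes, all with a mean above 5 FPKM, under normal noise, and 12 of its 182 calls were false. Cyp4a32 and Cyp4a12b lay below that level on average, and the real data gave 31 calls. These shares therefore do not tell whether an uncalled member was unchanged. Fragment numbers are approximate: the depth was read from the lowest step of single-transcript genes, and no count test was run. Intervals from them cover counting error only. Coding sequences were taken from GENCODE M21 and aligned with Biopython 1.88, and figures drawn with matplotlib 3.10.9.

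The members, and the lists beside them, were chosen with earlier results of these data known. Named genes are the members, up to 4 of smallest p from each list, Ppara, Por and Kap, and the 5 genes most like Cyp4a14 and Cyp4b1, of which some are not reported here; Aldh3a2, Cyp4f13, Lrp2, the untested genes listed at or near 0 and the marker genes given by name were named outside that rule. The alternatives were pseudocounts of 0.1 and 5, no filter, a filter of 5 FPKM, upper-quartile, quantile and TPM scaling, no trend, a robust trend, a replicate block and leaving out each library.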

Additional observations from a re-analysis of the deposited data

How the results depend on the processing

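The number of genes called over the whole table was 31. It was 1 with no filter on low values, 20 with a filter of 5 FPKM, 47 with upper-quartile scaling, 61 with a robust trend and 2 to 66 with a library left out. The number of members called was 0, and 0 to 1 with a library left out, the 1 being Cyp4a14 without tofogliflozin replicate 2; it was 0 in the other 15 settings. With the replicate number as a block 26 genes and 0 members were called. With that block the adjusted p of Cyp4a14 was 0.0966 (limma). Deviations of same-numbered libraries from their group means had r = -0.0549, -0.0623 and 0.0514, and those of other pairs ran from -0.138 to 0.188. With 3 libraries in a group this cannot exclude a pairing by number, and the main test used none. The direction held in every setting tried for Cyp4a14 (log2 change 1.47 to 2.53), Cyp4a10 (0.52 to 1.03), Cyp4a31 (0.17 to 0.54), Cyp4a32 (-0.54 to -0.23) and Cyp4b1 (-0.32 to -0.03). It turned for Cyp4a12a (-0.58 to 0.79 with a library left out) and Cyp4a12b (-0.042 to 0.30 with a library left out, the lowest without diet replicate 2), in neither case past the threshold. The filter of 5 FPKM removed Cyp4a32 and Cyp4a12b, which then have no value. Counting error was highest for Cyp4a32 (12.3% to 18%) and Cyp4a12b (9.45% to 14.3%).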
